A study of Homo sapiens with 6 samples.

Results

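The genes described here carry glucose from the cell surface to the mitochondrial door: 35 genes of glucose uptake, glycolysis, lactate handling and pyruvate use. They were chosen by name as rows of a table of 27452 genes, and each of the 35 had 1 row. RNA sequencing gave counts for 6 libraries. All carry the label HepG2, a hepatoma-derived human cell line in long use, and were grown in DMEM with serum: 3 libraries from lines made with a short hairpin RNA (shRNA) against STAT3 and 3 from lines made with a control shRNA. Cells process an shRNA into a small RNA that directs the breakdown of a matching transcript, and STAT3 is a transcription factor activated by cytokine receptors. The labels do not say whether the libraries of a group are separate cultures, clones or shRNA sequences, so the p-values rest on the spread among these 6 libraries, possibly a technical one, and any difference between the made lines other than the shRNA cannot be told apart from it. The comparison asks which transcripts differ between the STAT3 knockdown and control lines.

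Glucose enters through carriers of the SLC2A family, is trapped as glucose 6-phosphate by hexokinase, is committed to breakdown by phosphofructokinase, and ends as pyruvate. Pyruvate is either reduced to lactate by lactate dehydrogenase and exported, or taken into mitochondria and oxidised by the pyruvate dehydrogenase complex, which the pyruvate dehydrogenase kinases switch off. Most steps have several isozymes encoded by different genes. Tumour cells often favour the lactate route even in oxygen, and the transcription factors HIF-1, MYC and STAT3 have each been described as raising glycolytic genes.

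Library totals ran from 17694642 to 25862027 counts with the STAT3 shRNA and from 17408543 to 20133064 with the control shRNA, so that 0 counts in a library allow a level of up to 0.113 to 0.175 CPM (a count scaled to the size of its library, with 3 counts as the limit, for counting error only). STAT3 measured 34.8, 35.8 and 36.2 CPM with its own shRNA and 261.5, 246.7 and 246.3 CPM with the control shRNA, so each library carried the level its label names. Of 11 liver cell markers, ALB and APOA1 had at most 3 counts in each library, and the 5 markers with a row summed to 5.67 to 8.64 CPM with the STAT3 shRNA and 2.22 to 3.95 CPM with the control shRNA, so ALB and APOA1 were near 0. HNF4A, one of the 5, was called higher, at 6.58 ± 1.41 CPM with the STAT3 shRNA and 1.51 ± 0.260 CPM with the control shRNA (SD, n = 3 each). Epithelial markers summed to 4643 to 5085 CPM with the STAT3 shRNA and 2813 to 3375 CPM with the control shRNA, and 4 of 5 were called higher. KRT8 and KRT18 made up most of these sums, at means of 2882 and 1747 CPM with the STAT3 shRNA. With the control shRNA their means were 1814 and 1256 CPM. CDH1 was low and not called, at 0.734 ± 0.132 CPM with the STAT3 shRNA and 0.576 ± 0.310 CPM with the control shRNA. Stromal markers summed to 35.3 to 37.2 CPM with the STAT3 shRNA and 53.2 to 61.1 CPM with the control shRNA, with COL1A1 called lower and DCN and PDGFRB estimated higher but not called. Endothelial markers stayed at or below 1.69 CPM with the STAT3 shRNA and 1.76 CPM with the control shRNA, and the 1 leukocyte marker with a row at or below 0.246 CPM with the STAT3 shRNA and 0.211 CPM with the control shRNA. The part of these marker differences in the results was not tested.

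More glucose and pyruvate genes fell than rose in the STAT3 shRNA lines, while most were not called. Of 34 members that passed the filter on low counts, 9 fell (SLC2A1, SLC2A3, HK2, GPI, PFKL, PFKP, ENO1, LDHA and PDK1) and 1 rose (ENO2) at a false discovery rate (FDR) of 0.05 in edgeR's quasi-likelihood test, and 24 were not called. Over all 14999 genes tested, 8.13% fell and 9.39% rose, or 1219 and 1408 genes. SLC2A3 passed the filter only through the control libraries, and without it 8 of 33 fell. The 3 STAT3 shRNA libraries lay wholly below the 3 control libraries in 20 members and wholly above in 2, against 17.2% and 18.5% of all genes tested. Median log2 fold change was -0.25 over the members tested and -0.01 over all genes, a positive log2 fold change meaning a higher level with the STAT3 shRNA. Changes below are log2 fold changes ± SE. When libraries were scaled by their totals instead, 6 members fell and 2 rose, while 874 genes fell and 1916 rose over the whole table.

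**Figure D1:**
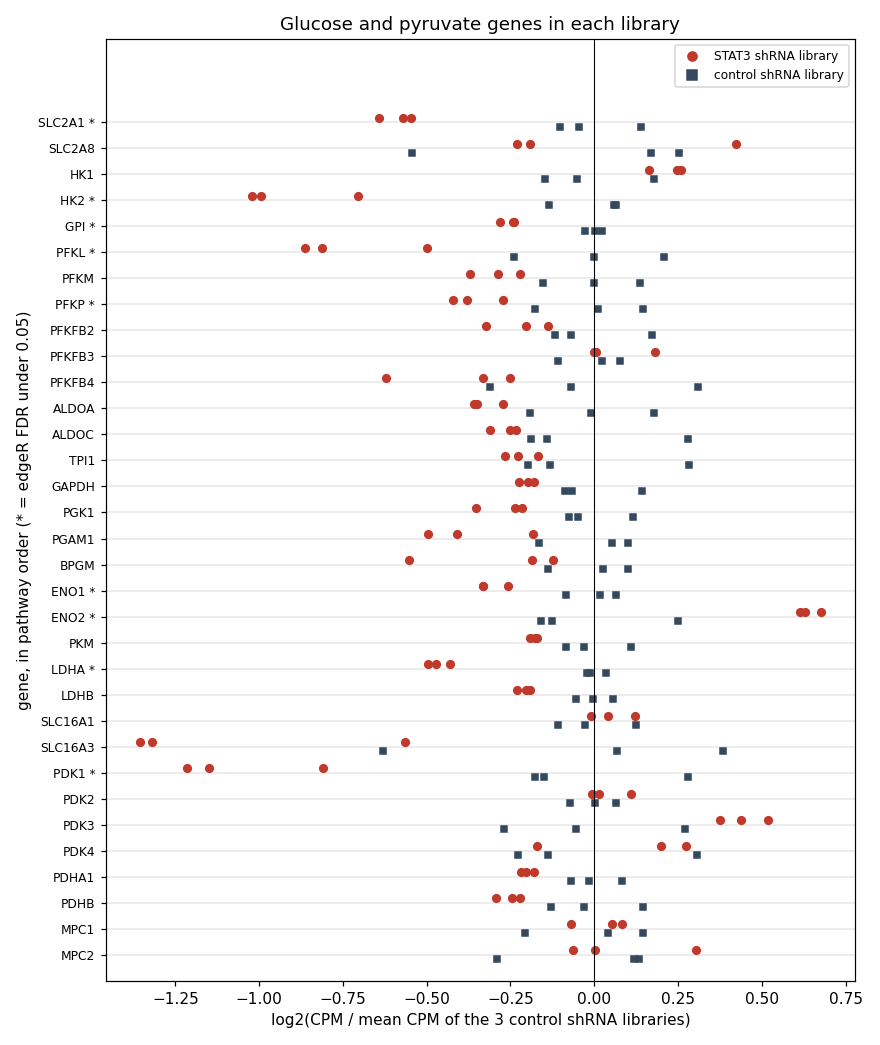
Level of each gene in each library, as log2 of its CPM over the mean of the 3 control libraries, in pathway order from uptake to mitochondrial entry. Red circles are STAT3 shRNA libraries and dark squares control libraries. SLC2A3, with counts near 0 in the STAT3 shRNA libraries only, and SLC2A10, with counts at or near 0 in both groups, are not drawn. Most rows have the red circles to the left, HK2, PFKL, LDHA and PDK1 with a clear gap, and ENO2 has them to the right.

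Summed over all 35 members, the level was 21038, 21599 and 21173 CPM in the STAT3 shRNA libraries and 24291, 25232 and 27699 CPM in the control libraries. The STAT3 shRNA sum was lower in every library, and its change was -17.4% (exact two-sided permutation test, p = 0.1, the smallest that 3 against 3 libraries can give). GAPDH, ENO1, PKM and LDHA, the members of highest mean CPM, weigh most in this sum, and GAPDH and PKM were not called. Their means were 5137, 3350, 3313 and 2042 CPM with the STAT3 shRNA and 5900, 4143, 3752 and 2820 CPM with the control shRNA. The sum also depends on how the libraries were scaled. Control library 3 had the highest level among control libraries for 22 of the 34 members tested, against 39.2% of all genes, and STAT3 shRNA library 2 the highest in its group for 17, against 37.6%.

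Levels between genes were compared per kilobase of the longest annotated transcript. GAPDH, the enzyme that makes the first high-energy product of the payoff phase, stood highest at 2740 ± 42.5 CPM per kilobase in STAT3 shRNA libraries and 3146 ± 283 in control libraries (SD, n = 3 each), rank 7 among 14373 genes. Enolase 1 (ENO1), pyruvate kinase (PKM) and lactate dehydrogenase A (LDHA) came next, at ranks 19, 27 and 31. The entry steps were far lower. The member glucose carriers summed to 30.3 ± 2.43 CPM per kilobase with the STAT3 shRNA and 43.4 ± 4.29 with the control shRNA. HK1 and HK2 together summed to 16.1 ± 1.09 with the STAT3 shRNA and 21.5 ± 0.326 with the control shRNA. The phosphofructokinases summed to 193 ± 11.8 with the STAT3 shRNA and 254 ± 29.4 with the control shRNA. The lactate dehydrogenases summed to 1390 ± 23.7 CPM per kilobase with the STAT3 shRNA and 1797 ± 18.1 with the control shRNA, while the 4 pyruvate dehydrogenase kinases summed to 34.99 ± 2.33 with the STAT3 shRNA and 32.8 ± 4.002 with the control shRNA.

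**Figure D2:**
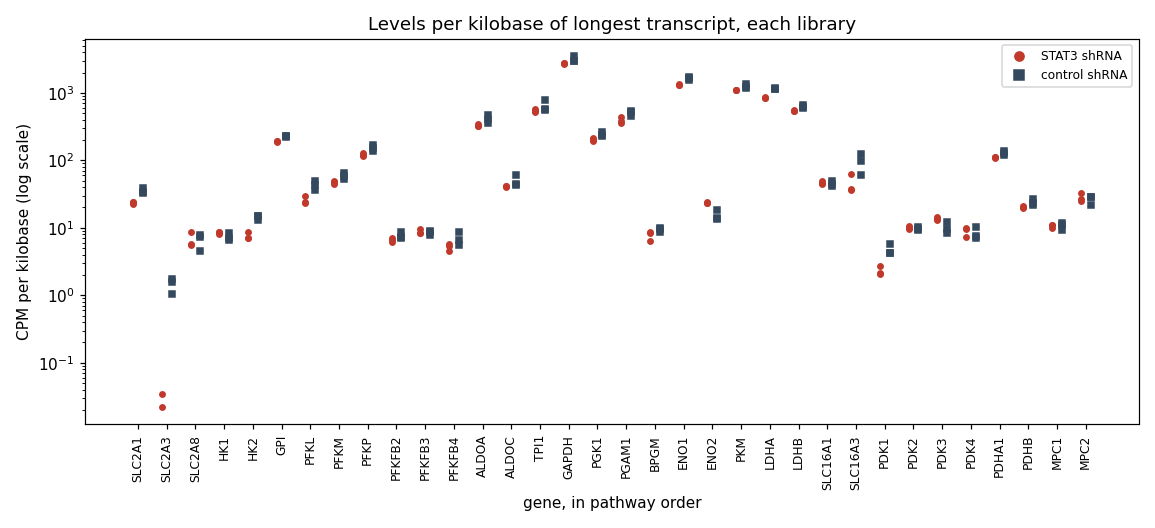
Level of each gene in CPM per kilobase of its longest annotated transcript, on a log axis, in pathway order. Red circles are STAT3 shRNA libraries and dark squares control libraries. GAPDH, ENO1, PKM and LDHA stand at the top, and SLC2A3 is the gene whose groups lie farthest apart. Libraries with 0 counts and SLC2A10 are not drawn.

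GAPDH is often the gene to which others are scaled, so the members were also set as a ratio to GAPDH within each library, a comparison chosen after the values were seen (0.5 added to each count, log2). Of 33 members, 6 lay wholly lower in the STAT3 shRNA libraries: SLC2A1, SLC2A3, HK2, PFKL, LDHA and PDK1. A further 6 lay wholly higher, namely HK1, PFKFB3, ENO2, SLC16A1, PDK2 and PDK3, and 21 overlapped. Over 14998 genes the same ratio was wholly lower in 7.03% and wholly higher in 32.5%. LDHA over GAPDH stood at -1.36, -1.34 and -1.30 in STAT3 shRNA libraries and -0.94, -1.02 and -1.22 in control libraries. ENO1, PGK1, TPI1, ALDOA, GPI, PGAM1, PKM and LDHB overlapped between groups as ratios to GAPDH, with mean differences of -0.16 to 0.02. The median difference was -0.05 over the members and 0.19 over all genes.

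The promoters of 4 members are shown because the hypoxia response element, bound by HIF factors, is a known feature of glycolytic genes. HK2, which begins glycolysis, PFKL, which commits to it, and LDHA, which ends it in lactate, fell, and PDHB, a subunit of pyruvate dehydrogenase, was not called. The 250 bases before an annotated start are from RefSeq on GRCh38.p14, read 5′ to 3′ on the strand of the gene, with ACGTG and GCGTG on either strand in capitals. The windows are chr11:18394313-18394562 (plus strand, one of its 2 listed starts) for LDHA, chr2:74834920-74835169 (plus strand, likewise one of 2) for HK2, chr21:44299803-44300052 (plus strand) for PFKL and chr3:58433833-58434082 (minus strand) for PDHB.
LDHA: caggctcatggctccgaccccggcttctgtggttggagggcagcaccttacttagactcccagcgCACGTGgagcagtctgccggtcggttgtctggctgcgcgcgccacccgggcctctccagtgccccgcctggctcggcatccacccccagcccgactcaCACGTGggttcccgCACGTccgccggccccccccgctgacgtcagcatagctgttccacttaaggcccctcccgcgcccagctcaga
HK2: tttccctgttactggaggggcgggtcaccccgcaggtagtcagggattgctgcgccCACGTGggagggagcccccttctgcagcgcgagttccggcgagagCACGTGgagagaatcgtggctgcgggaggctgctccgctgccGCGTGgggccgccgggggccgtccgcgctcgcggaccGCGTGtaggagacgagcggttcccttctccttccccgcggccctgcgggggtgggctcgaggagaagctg
PFKL: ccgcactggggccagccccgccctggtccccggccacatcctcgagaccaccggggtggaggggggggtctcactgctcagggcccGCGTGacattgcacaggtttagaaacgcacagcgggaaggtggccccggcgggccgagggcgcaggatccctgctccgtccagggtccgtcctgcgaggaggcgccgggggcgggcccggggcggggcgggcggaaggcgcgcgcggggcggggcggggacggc
PDHB: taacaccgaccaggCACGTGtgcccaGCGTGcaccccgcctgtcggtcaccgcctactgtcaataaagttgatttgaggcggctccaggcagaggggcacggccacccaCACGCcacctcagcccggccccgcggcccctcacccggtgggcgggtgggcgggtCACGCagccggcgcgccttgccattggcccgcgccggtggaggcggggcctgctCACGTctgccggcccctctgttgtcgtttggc
LDHA and HK2 each held 2 copies of CACGTG, the E-box that MYC can bind, in which ACGTG lies on both strands and is counted on each. The LDHA window held 5 matches to ACGTG, that of HK2 held 4 and 2 to GCGTG, and that of PFKL 1 GCGTG. At the other LDHA start there were 0 matches to ACGTG and 1 to GCGTG, and at the other HK2 start 2 and 1, with CACGTG at neither. PDHB, which was not called, held 3 matches to ACGTG, 3 to GCGTG and 1 CACGTG. Promoter entries were found for 32 members, with 62 annotated starts. ACGTG was in 35.5% of the 62 and in 22.5% of 14787 starts of tested genes, or 18.5% of all 35116 starts. GCGTG was in 30.6%, against 43.9% and 32.2%. CACGTG was in 12.9%, against 8.41% and 6.34%, and TTCNNNGAA, the core that STAT factors bind, in 3.23%, against 5.45% and 6.57%. Among members with an entry, at least 1 start with ACGTG or GCGTG was found for 7 of the 8 that fell and for 16 of the 22 not called. SLC2A1 fell and held neither motif. Genes with more starts have more places for a match, and the share per gene over all tested genes is not given here. By start, either motif was in 53.2% of the members' 62 and in 55.4% of those of tested genes. A gene with several starts counts several times in these shares.

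Glucose uptake differed by carrier. SLC2A1, the widely expressed carrier GLUT1 (chromosome 1), lay at 83.2, 88.9 and 87.5 CPM with the STAT3 shRNA and at 125.8, 121.0 and 143.0 CPM with the control shRNA, without overlap. Its log2 fold change was -0.59 ± 0.0928 (edgeR adjusted p = 0.00245). SLC2A3, the high-affinity carrier GLUT3 of neurons, had 4, 2 and 0 counts with the STAT3 shRNA and 132, 87 and 133 counts with the control shRNA. Over the pooled counts, 6 against 352, it was 69.9-fold lower, with a 95% exact counting interval of 31.8 to 192 (edgeR adjusted p = 6.33e-05). That interval covers counting error only and leaves out the spread among libraries. SLC2A3 also passed the filter on low counts only through the control libraries. Even in the control libraries SLC2A3 was a minor carrier, at 3.38 ± 0.885% of the member carriers' summed level per kilobase. SLC2A14, nearly identical to SLC2A3, was looked for and had no row under that name. Its pseudogene rows SLC2A3P1 and SLC2A3P4 held between 1.49 and 100% of the counts of gene and pseudogenes together, so its remaining counts are uncertain. SLC2A8, an intracellular carrier, ranged from 12.1 to 19.1 CPM with the STAT3 shRNA and from 9.74 to 16.9 with the control shRNA, and the groups overlapped (0.03 ± 0.239). Its sign turned without STAT3 shRNA library 2 or control library 1. SLC2A10, with 0, 2 and 1 counts with the STAT3 shRNA and 0 in each control library, did not pass the filter on low counts.

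Hexokinase differed in make-up between the groups. HK2, the inducible hexokinase of many tumours (chromosome 2), lay at 40.4, 50.3 and 41.2 CPM with the STAT3 shRNA and 85.5, 85.9 and 74.7 CPM with the control shRNA, with a wide gap between groups, and fell by 0.90 on the log2 scale (SE 0.114, edgeR adjusted p = 0.000727). HK1, the constitutive hexokinase, lay at 34.8, 34.5 and 32.6 CPM with the STAT3 shRNA and 28.1, 26.3 and 32.9 CPM with the control shRNA, and the highest control library overlapped (0.22 ± 0.111, edgeR adjusted p = 0.206). HK1 took 55.4, 49.8 and 53.3% of the summed HK1 and HK2 level per kilobase with the STAT3 shRNA. With the control shRNA it took 32.1, 30.6 and 38.9%. The groups did not overlap and the difference was 18.9 percentage points. HKDC1, a hexokinase-like gene outside the 35, rose to 14.1 ± 1.04 CPM in STAT3 shRNA libraries, against 6.52 ± 0.733 CPM in control libraries (n = 3 each, edgeR adjusted p = 0.000652). Per kilobase HKDC1 averaged 3.83 CPM with the STAT3 shRNA and 1.77 CPM with the control shRNA. It is not part of the HK1 and HK2 sum, and counting it would lower the HK1 share in both groups.

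GPI, which turns glucose 6-phosphate into fructose 6-phosphate, lay at 831.8, 807.9 and 830.1 CPM with the STAT3 shRNA and 997.2, 963.2 and 983.9 CPM with the control shRNA. The groups did not overlap, and its change of -0.25 ± 0.0740 passed narrowly (edgeR adjusted p = 0.0448). That call was lost without any one of the 6 libraries and with library totals (adjusted p = 0.185).

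Phosphofructokinase, the committing step, is built from liver (PFKL), muscle (PFKM) and platelet (PFKP) type subunits. PFKL lay at 140.5, 180.8 and 145.6 CPM with the STAT3 shRNA and 216.3, 255.2 and 294.9 CPM with the control shRNA. It fell by 0.72 on the log2 scale (SE 0.137, edgeR adjusted p = 0.00676), with the groups apart. PFKP, the subunit with the highest level per kilobase in both groups, fell by 0.36 (SE 0.1003, edgeR adjusted p = 0.0385), a call lost without any one STAT3 shRNA library, without control library 2 or 3 and with library totals (adjusted p = 0.0905). PFKM changed by -0.29 ± 0.0968 and was not called (edgeR adjusted p = 0.0700), though it was without control library 1 (0.0173). In the annotation PFKM overlaps SENP1 on the other strand. The level of SENP1 was 29.1% of that of PFKM, and the strand setting is not known. PFKL took 13.4 ± 1.05% of the level per kilobase of the 3 subunits in STAT3 shRNA libraries and 16.7 ± 0.644% in control libraries (SD, n = 3 each), without overlap.

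The bifunctional PFKFB enzymes set fructose 2,6-bisphosphate, the strongest activator of phosphofructokinase, and none of the 3 was called. PFKFB3 is the form whose kinase activity most outweighs its phosphatase activity. It lay at 38.3, 43.4 and 38.4 CPM with the STAT3 shRNA and 35.5, 38.9 and 40.4 CPM with the control shRNA (0.06 ± 0.101). PFKFB2 changed by -0.22 ± 0.108 and PFKFB4 by -0.40 ± 0.171 (edgeR adjusted p = 0.203 and 0.1497). YOD1 overlaps PFKFB2 on the other strand at 103% of its level. Within the 3 genes, PFKFB3 took 42.8 ± 1.04% of the level per kilobase with the STAT3 shRNA and 36.8 ± 0.861% with the control shRNA (SD, n = 3 each), without overlap.

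The abundant enzymes from aldolase to pyruvate kinase were all estimated a little lower, and ENO1 was the 1 that passed the test downward. ENO1, the ubiquitous enolase, lay at 3289, 3466 and 3293 CPM with the STAT3 shRNA and 3907, 4192 and 4331 CPM with the control shRNA (-0.31 ± 0.0806, edgeR adjusted p = 0.0295). The groups did not overlap, but the call was lost without any one STAT3 shRNA library, without control library 2 and with library totals (adjusted p = 0.0901). Aldolase A (ALDOA, -0.33 ± 0.103), phosphoglycerate kinase (PGK1, -0.27 ± 0.0878) and phosphoglycerate mutase (PGAM1, -0.36 ± 0.110) did not overlap between groups and had edgeR adjusted p-values of 0.0598, 0.0679 and 0.0543. ALDOA and PGAM1 were called without control library 1 (0.0109 and 0.0165), and PGAM1 also without STAT3 shRNA library 2 (0.0312).

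GAPDH lay at 5210, 5051 and 5149 CPM with the STAT3 shRNA and 5551, 5637 and 6511 CPM with the control shRNA, with control library 3 standing highest. Its change was -0.20 ± 0.0889 (edgeR adjusted p = 0.161). PKM (-0.18 ± 0.0830) and triose phosphate isomerase (TPI1, -0.22 ± 0.126) were likewise not called, nor was aldolase C (ALDOC, -0.27 ± 0.127), the aldolase of brain. BPGM, which makes 2,3-bisphosphoglycerate, overlapped between groups (-0.27 ± 0.139). Among the 10 members with the highest mean CPM, log2 fold changes ran from -0.47 to -0.18, and 3 were called. Rows named as pseudogenes of GAPDH, TPI1, PGK1, PGAM1, ENO1, PKM, LDHA, LDHB and PDHA1 held at most 0.166% of a gene's counts in any library, though how shared reads were assigned is not known.

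ENO2, the enolase of neurons, was the 1 member that rose. It lay at 65.8, 68.6 and 66.5 CPM with the STAT3 shRNA and 38.4, 39.3 and 51.1 CPM with the control shRNA, and the groups stood apart (0.64 ± 0.121, edgeR adjusted p = 0.00644). It passed under each of the 14 alternatives, with adjusted p up to 0.0450. ENO2 remained a small part of enolase: ENO1 took 98.2 ± 0.0165% of the level per kilobase in STAT3 shRNA libraries and 99.1 ± 0.113% in control libraries (SD, n = 3 each).

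At the lactate branch, LDHA, whose subunit is the form favoured in glycolytic tissue (chromosome 11), lay at 2034, 2000 and 2092 CPM with the STAT3 shRNA and 2891, 2775 and 2793 CPM with the control shRNA. The libraries within each group lay close together, and LDHA fell by 0.47 on the log2 scale (SE 0.0752, edgeR adjusted p = 0.00275). LDHB, the heart-type subunit, lay at 824.9, 840.1 and 848.1 CPM with the STAT3 shRNA and 932.5, 965.0 and 1007 CPM with the control shRNA, a smaller difference (-0.21 ± 0.0762, edgeR adjusted p = 0.0937). LDHA therefore took 60.8 ± 0.487% of lactate dehydrogenase per kilobase in STAT3 shRNA libraries and 65.0 ± 1.29% in control libraries (SD, n = 3 each), without overlap.

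Lactate leaves through SLC16A1 (MCT1) and through SLC16A3 (MCT4), the export form of glycolytic cells. SLC16A3 lay at 178.0, 307.8 and 182.6 CPM with the STAT3 shRNA and 294.2, 477.7 and 594.6 CPM with the control shRNA. STAT3 shRNA library 2 lay above the lowest control library, and the log2 fold change of -1.03 ± 0.318 was not called (edgeR adjusted p = 0.0742). It was called without STAT3 shRNA library 2 (0.0281) or control library 1 (0.0478). CSNK1D overlaps SLC16A3 on the other strand at 36.0% of its level. SLC16A1 lay at 202.4, 195.4 and 214.1 CPM with the STAT3 shRNA and 214.5, 193.1 and 182.5 CPM with the control shRNA, with full overlap (0.05 ± 0.0905). Of the 2 chaperones of these carriers, embigin (EMB) rose to 41.2 ± 3.88 CPM in STAT3 shRNA libraries, against 17.6 ± 3.65 CPM in control libraries (SD, n = 3 each, edgeR adjusted p = 0.000705). Basigin (BSG) was not called (-0.25 ± 0.123).

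Among the kinases that gate pyruvate oxidation, PDK1 fell and the others were not called. PDK1, the hypoxia-inducible kinase that inhibits pyruvate dehydrogenase (chromosome 2), lay at 30.2, 28.9 and 38.2 CPM with the STAT3 shRNA and 81.4, 60.4 and 59.3 CPM with the control shRNA, a wide gap (-1.05 ± 0.156, edgeR adjusted p = 0.00177). PDK3 lay at 64.6, 61.9 and 68.3 CPM with the STAT3 shRNA and 57.6, 46.0 and 39.6 CPM with the control shRNA, higher without overlap but not called (0.44 ± 0.135, edgeR adjusted p = 0.0522). It was called in 7 of 14 alternatives, among them the fit without control library 1 (0.00188). PDK2 (0.04 ± 0.0942) and PDK4, the kinase raised by fasting (0.12 ± 0.168), overlapped between groups.

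Per kilobase, PDK1 took 6.52 ± 0.801% of the 4 kinases in STAT3 shRNA libraries and 14.3 ± 0.869% in control libraries, and PDK3 took 39.4 ± 1.502% with the STAT3 shRNA and 30.6 ± 2.58% with the control shRNA (SD, n = 3 each). The longest PDK1 transcript has 14193 bases, which lowers its level per kilobase. By counts alone PDK1 took 19.7 ± 2.01% with the STAT3 shRNA and 37.5 ± 1.45% with the control shRNA.

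Downstream, PDHA1 and PDHB, subunits of the decarboxylating enzyme of the complex, were estimated at -0.20 ± 0.0791 and -0.25 ± 0.0945 and were not called (edgeR adjusted p = 0.119 and 0.0999), although neither overlapped between groups. PDHB was called without control library 1 (0.0318). MPC1 and MPC2, which together form the mitochondrial pyruvate carrier, overlapped between groups, at 0.02 ± 0.131 and 0.09 ± 0.143. Signs of both turned on leaving out 1 library: MPC1 without STAT3 shRNA library 3 or control library 2, and MPC2 without STAT3 shRNA library 2 or control library 1. MPC2 overlaps DCAF6 on the other strand, at 139% of its level.

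Within-step shares cancel the scaling between libraries, and 20 of them were compared by exact two-sided permutation tests over the 6 libraries. In 11 the groups did not overlap, each with an exact permutation p = 0.1, the smallest possible. After Benjamini-Hochberg adjustment over the 20 this permutation p was 0.182, so none could pass a threshold of 0.05 in this design. Shares are of a step's members only, and when 1 share falls others of that step must rise. The 11 are therefore not separate results. Beyond the shares given above, SLC2A8 took 21.9 ± 4.09% of the carriers in STAT3 shRNA libraries and 15.0 ± 3.49% in control libraries. PFKM took 24.6 ± 0.840% of phosphofructokinase in STAT3 shRNA libraries and 22.9 ± 0.391% in control libraries, and PFKP 62.0 ± 1.10% in STAT3 shRNA libraries and 60.4 ± 0.313% in control libraries (SD, n = 3 each). The shares of ALDOA in aldolase, PDHA1 in pyruvate dehydrogenase and MPC1 in the carrier differed by -0.45, 0.46 and -1.002 percentage points, with overlap.

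**Figure D3:**
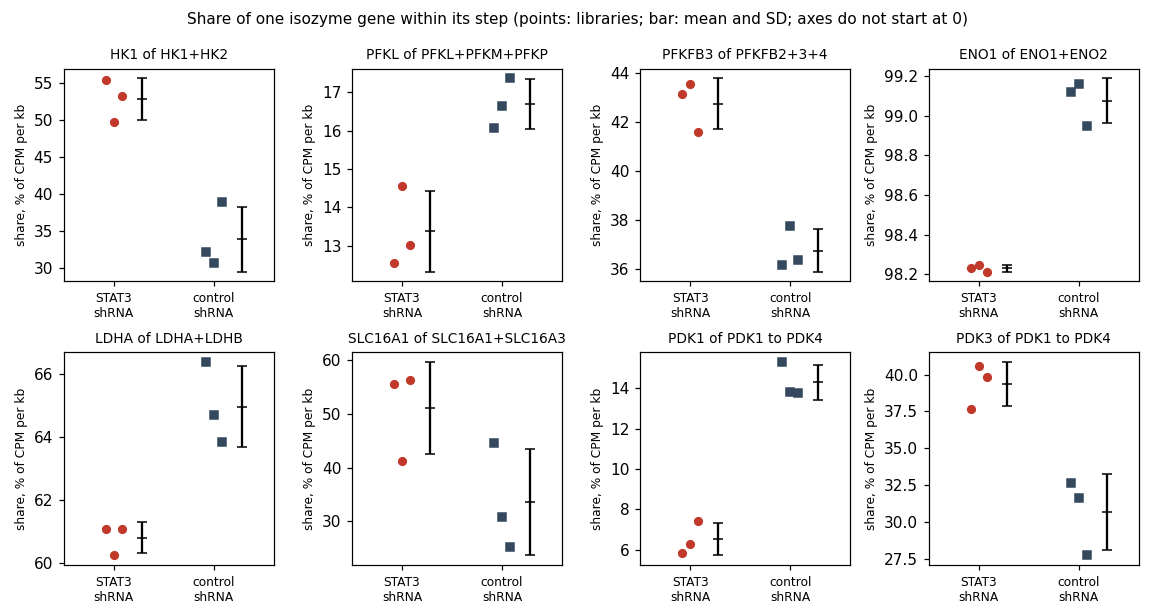
Share of 1 gene in the summed level per kilobase of the members of its step, for 8 genes. Red circles (left) are STAT3 shRNA libraries and dark squares (right) control libraries, with mean and SD as a bar. HK1 and PDK3 took larger and LDHA, PFKL and PDK1 smaller shares in the STAT3 shRNA libraries, while the SLC16A1 groups overlapped. The vertical axes do not start at 0.

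Each tested member was also set beside its 40 nearest tested neighbours on the chromosome (28 for PFKP, 38 for SLC16A3 and 34 for MPC1). PDK1 lay among lower neighbours: of the 40 nearest tested genes, 25 fell and 0 rose, with a median log2 fold change of -0.55, and PDK1 lay 0.50 below that median on the log2 scale. HK1 lay at 0.22, close to its neighbours' median of 0.20, 10 of which rose. LDHA differed in direction from its surroundings, where 11 of 40 neighbours rose, 2 fell and the median was 0.19. Around HK2, SLC2A1 and PFKL the medians were -0.08, -0.02 and -0.17, with 2, 2 and 6 of 40 neighbours lower, and around ENO2 the median was -0.19. The part of these surroundings in the members' changes was not tested.

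**Figure D4:**
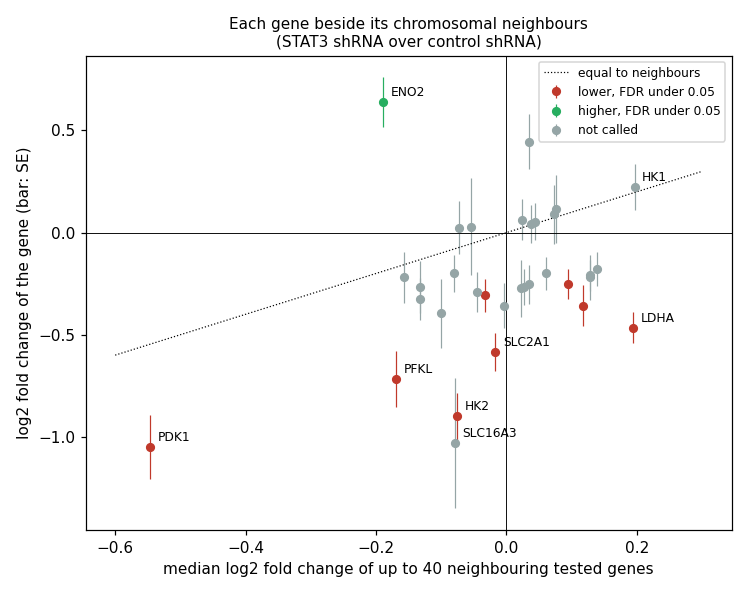
Log2 fold change of each gene (vertical, bar is SE) against the median of up to 40 neighbouring tested genes (horizontal). Red marks genes that fell, green the gene that rose and grey those not called, and the dotted line marks equality. PDK1 is the gene with strongly lower neighbours, and LDHA fell where its neighbours' median was 0.19. SLC2A3 and SLC2A10 are not drawn.

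Genes of connected pathways were counted in the same fit, in which 8.13% of all genes tested fell and 9.39% rose. In the pentose phosphate pathway, which draws on glucose 6-phosphate to make NADPH and ribose, 5 of 7 tested genes fell and 1 rose, with a median log2 fold change of -0.47. Among them 6-phosphogluconate dehydrogenase (PGD) fell to 219 ± 6.76 CPM in STAT3 shRNA libraries, against 333 ± 27.2 CPM in control libraries (SD, n = 3 each, edgeR adjusted p = 0.00156). The epimerase RPE (-0.69 ± 0.117) and transketolase (TKT, -0.47 ± 0.0858) fell too, as did transaldolase (TALDO1, -0.33 ± 0.0852), and H6PD, the enzyme of the endoplasmic reticulum, rose (0.48 ± 0.108). Over 14 alternatives 4 to 5 fell and 0 to 1 rose, with 0 higher without STAT3 shRNA library 3 or control library 2.

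In the tricarboxylic acid cycle, 3 of 16 genes fell and 0 rose (median -0.13). Among them were succinate dehydrogenase subunit B (SDHB, -0.76 ± 0.0872) and an isocitrate dehydrogenase subunit (IDH3G, -0.34 ± 0.101). That count was 1 without STAT3 shRNA library 1 or 3, without control library 2 or 3 or with library totals, and 5 without control library 1. In the rest of the pyruvate dehydrogenase complex, DLAT, its acetyltransferase, fell (-0.29 ± 0.0854, edgeR adjusted p = 0.0449) among 6 genes, a call lost in 9 of 14 alternatives: without any one STAT3 shRNA library, without control library 1 or 2, with library totals, upper-quartile factors, no low-count filter or a replicate block. Of 14 gluconeogenesis and glycogen genes, 3 fell, glycogenin 2 (GYG2), glycogen synthase (GYS1, -0.41 ± 0.0777) and pyruvate carboxylase (PC, -0.43 ± 0.109), and the glycogen phosphorylase PYGB rose (0.54 ± 0.0884). GYG2 had 4, 5 and 3 counts with the STAT3 shRNA and 46, 35 and 45 counts with the control shRNA, and so passed the filter only through the control libraries.

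Among 10 hexosamine, polyol and serine branch genes 2 rose, GFPT1, which opens the hexosamine pathway (0.61 ± 0.117), and PHGDH, which opens serine synthesis (0.45 ± 0.0964), and 1 fell, sorbitol dehydrogenase (SORD, -0.57 ± 0.111). Without control library 2, 1 rose. Of 9 further genes counted as carriers 2 rose, EMB, a chaperone rather than a carrier, and the carrier SLC2A12. Of 5 further isozymes HKDC1 rose. SLC2A12 had 44, 31 and 22 counts with the STAT3 shRNA and 6, 8 and 4 counts with the control shRNA. It thus passed the filter only through the STAT3 shRNA libraries, and with a filter at a mean of 1 CPM 1 gene of that list rose. Medians were -0.02 for the branch genes, -0.10 for the carriers, -0.08 for the isozymes, -0.03 for the rest of the pyruvate dehydrogenase complex and -0.06 for the regulators below, and each of the 5 was above 0 with library totals, at most at 0.07.

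Of 17 regulators of glycolytic transcription, 3 fell and 2 rose, or 17.6% and 11.8%, against 8.13% and 9.39% of all genes tested. Without any one STAT3 shRNA library, without control library 2, with no low-count filter or with a replicate block 1 rose, and without STAT3 shRNA library 1 only 2 fell. EPAS1, or HIF-2 alpha, fell to 6.53 ± 0.706 CPM in STAT3 shRNA libraries, against 46.8 ± 0.666 CPM in control libraries (SD, n = 3 each, edgeR adjusted p = 1.41e-06). The oxygen-sensing prolyl hydroxylases EGLN1 (-0.61 ± 0.0860) and EGLN3 (-0.92 ± 0.206) also fell. HIF1A, the subunit most tied to glycolytic genes, was not called (-0.23 ± 0.124, edgeR adjusted p = 0.237), nor was MYC, at 343 ± 2.65 CPM with the STAT3 shRNA and 349 ± 8.08 CPM with the control shRNA (-0.02 ± 0.0744). The coactivator PPARGC1A (0.87 ± 0.159) was among those that rose.

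**Figure D5:**
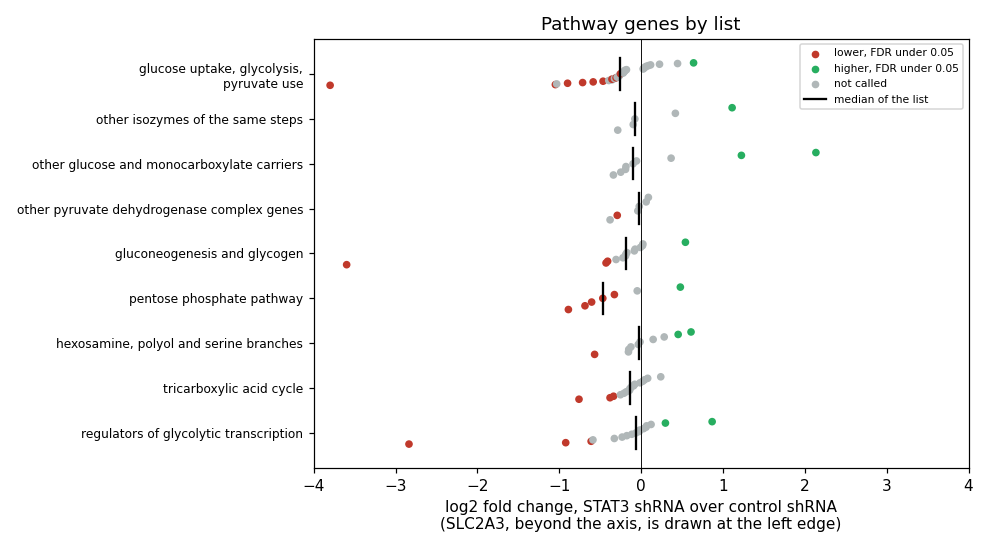
Log2 fold change of each tested gene by list, STAT3 shRNA over control shRNA, with glucose uptake, glycolysis and pyruvate use at the top. Red points fell, green rose and grey were not called, and black bars mark the median of each list, which is -0.25 at the top and -0.47 for the pentose phosphate pathway. SLC2A3 lies beyond the axis and is drawn at its left edge.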

How the data were processed

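The authors deposited a table of whole-number read counts per gene for 6 libraries, with totals that differ between libraries. Aligner, counting program, build, strand setting and kit were not given in the sources used here. The whole table was fitted with edgeR 4.0.16 (R 4.3.3): filterByExpr (minimum count 10, total 15) kept 14999 genes, libraries were scaled by TMM factors, which hide a shift common to most genes, and each gene was tested by the robust quasi-likelihood test with group as the only term, two-sided, with Benjamini-Hochberg adjustment across the 14999 genes and an FDR threshold of 0.05. SE is the log2 fold change over the square root of F. The procedure was tested on simulated data, where the share of false calls lay above the nominal FDR, so calls near the threshold are less certain. Lengths, chromosomes and gene order came from GENCODE 29 by identifier, which found 14373 of the tested genes. Shares and sums were compared by exact permutation over 20 assignments. DESeq2 1.42.0, limma 3.58.1, other scalings and filters, a replicate block and leaving out each library were alternatives. Libraries of a group differed by 4.35 to 45.9 chi-square per degree of freedom, more than counting noise alone. In 23 rows the symbol had turned into a date, and these were kept under their identifier; none is a member. Members, lists and tests were chosen with earlier results of these data known. Named were all 35 members and STAT3, and from each further list the called genes up to 4 by smallest FDR, or if none was called the 2 of highest mean. Some genes of these lists are counted but not reported here by name. H6PD, TALDO1, BSG, HIF1A and MYC are named outside that rule, chosen after their values were seen.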

Additional observations from a re-analysis of the deposited data

How the results depend on the processing

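Of the 10 members called, 7 (SLC2A1, SLC2A3, HK2, PFKL, LDHA, PDK1 and ENO2) were called in all 14 alternatives, and GPI, PFKP and ENO1 were lost in 10, 8 and 6. Of 24 not called, 8 were called in at least 1. The count of lower members was 15 with the DESeq2 Wald test and 6 to 13 on leaving out 1 library. The count of higher members was 2, by the addition of PDK3, with library totals, upper-quartile factors, no low-count filter, a filter at a mean of 1 CPM, DESeq2 or limma-trend, and 1 to 2 on leaving out 1 library. Over all genes, 666 to 2030 fell and 796 to 2068 rose on leaving out 1 library, with the low counts (666 to 708 lower, 796 to 819 higher) without STAT3 shRNA library 1 or 3 or control library 2 and the high ones without control library 1. The members' median ran from -0.27 to -0.19 there and was -0.16 with library totals. Library numbers showed no consistent pairing of the samples: same-numbered libraries had correlated deviations with r of 0.28, 0.19 and -0.23. STAT3 shRNA library 1 correlated best with its own number. Library 2 did so with control library 3 (0.33) and library 3 with control library 1 (0.30). Whether libraries shared a batch in another order was not tested. A replicate block gave 9 lower and 1 higher members (1068 and 1210 genes), losing GPI and PFKP and adding PGAM1 and SLC16A3.

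Leaving out 1 library turned the sign of shares whose groups overlapped, in percentage points: ALDOA -0.80 to 0.10, MPC1 -3.42 to 2.11, PDK2 -3.98 to 0.47, PDK4 -0.63 to 1.80 and PFKFB2 -3.88 to 0.67. Without length correction the PDK2 share turned to 1.94. Of 140 share values, 132 kept their direction. Log2 fold changes ran from -0.072 to 0.11 for MPC1, -0.031 to 0.16 for MPC2 and -0.21 to 0.18 for SLC2A8, and the cause was not tested. The 3 libraries a group and levels near 0 limit SLC2A3, near 0 with the STAT3 shRNA only, and SLC2A10, near 0 in both groups. With 3 against 3 libraries no permutation test can pass 0.05.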
